A study of Homo sapiens with 6 samples.

Results

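The genes described here encode the subunits of the proteasome, its activators and inhibitor, and the chaperones that assemble it. They were chosen by name: protein-coding genes whose symbol begins with PSMA, PSMB, PSMC, PSMD, PSME, PSMF or PSMG followed by a digit. The rule found 49 of the 19948 protein-coding genes with a transcript in the tables. The members lie on 17 chromosomes. Of the 49, 47 had enough reads to be tested among 15223 genes. The other two, PSMA8 and PSMB11, are forms of the core particle known from testis and thymus. PSMA8 was listed at 0 in all 6 libraries, and PSMB11 had 5 estimated counts in all. The rule also takes in PSMC3IP, a meiotic recombination factor named for its binding to PSMC3, which is not a proteasome subunit and is kept apart in the text.

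The study measured messenger RNA in Rh30, an established line of alveolar rhabdomyosarcoma that carries the PAX3-FOXO1 gene fusion. The 3 control libraries and the 3 libraries in which DDX5, a DEAD-box RNA helicase, was knocked down (siDDX5) share the line and the fusion, and the labels separate them by the knockdown. The labels call them biological replicates, do not say what the control cells received or how long the knockdown lasted, and the groups stand for 1 cell line.

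The proteasome degrades proteins tagged with ubiquitin. Its barrel-shaped core particle, the 20S proteasome, is built of rings of alpha subunits, which form the gate, around rings of beta subunits, which hold the proteolytic sites. The 19S regulatory particle caps the barrel with a ring of ATPases that unfold and feed in the substrate, and with non-ATPase subunits that bind ubiquitin chains and cut them off. In cells exposed to interferon, 3 of the beta subunits are exchanged for immunoproteasome forms, and other caps such as the PA28 activators can take the place of the 19S particle. Because the subunits are needed in a fixed ratio, their genes are known for being transcribed together, in part under the factor NFE2L1.

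The libraries held 18202402 to 26156858 estimated counts. DDX5 fell from 1352, 1434 and 1137 CPM (counts scaled to one common library total) in the control libraries to 549, 504 and 396 in the siDDX5 libraries, a log2 fold change of -1.44 (SE 0.15, adjusted p = 0.0106, edgeR quasi-likelihood test with Benjamini-Hochberg adjustment). That call was lost without control replicate 1, siDDX5 replicate 1 or siDDX5 replicate 2 (adjusted p = 0.0953, 0.0652 and 0.0531), with fold changes of -1.41, -1.54 and -1.47. Of the muscle lineage and rhabdomyosarcoma markers MYOD1, MYOG, DES, PAX3, FGFR4, MYCN, CHRNA1 and MYL4, all 8 were expressed. In the mean of the controls they ran from 10.5 CPM (MYL4) to 465 CPM (DES). Of 5 markers of other cells, EPCAM and PDGFRA were below the filter on low counts, and PTPRC, PECAM1 and COL1A1 were at 1.99, 11.9 and 17.9 CPM in the mean of the controls. PECAM1 and COL1A1 thus lay above MYL4. In bulk RNA, fewer cells that express a gene and less of its RNA per cell cannot be told apart.

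The clearest difference in a proteasome gene was in the makeup of PSME3 RNA and not in its total amount: a transcript that skips a coding exon took a larger share after knockdown. Whether more of it was made or less of it was degraded cannot be told apart. PSME3 encodes PA28-gamma, a nuclear activator that opens the core particle without ubiquitin. The gene lies at chr17:42824385-42843758 on the plus strand (GRCh38). ENST00000543428.5, which is annotated as a target of nonsense-mediated decay, lacks a coding exon that is present in 12 of the 17 annotated PSME3 transcripts, and has 1 junction that is found in no other PSME3 transcript.

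The length of that exon leaves a remainder of 2 on division by 3, so its loss shifts the reading frame. The annotated stop codon of the skipping transcript lies 178 bases before its last exon junction. It ends a reading frame of 130 codons, against 265 in ENST00000441946.6. A stop codon well before the last junction is the textbook mark of a transcript that nonsense-mediated decay can degrade.

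The skipping transcript had 8.14, 4.24 and 5.00 estimated counts in the control libraries and 75.1, 41.2 and 50.9 in the siDDX5 libraries. Its share of all PSME3 counts was 0.144%, 0.103% and 0.105% in the controls and 1.64%, 0.992% and 1.41% after knockdown. All 3 siDDX5 libraries were above all 3 controls, with group means of 0.118% ± 0.0230 and 1.35% ± 0.330 (SD, n = 3 each). Tested over all genes with at least 2 tested transcripts, the usage of PSME3 transcripts changed (Simes adjusted p = 0.00416, edgeR diffSpliceDGE), also in the fit blocked by replicate number (adjusted p = 0.0138). The usage coefficient of the skipping transcript, relative to the gene as a whole, was 2.42 on the log2 scale. PSME3 was the only one of the 47 members called, beside 170 of 10704 genes or 1.59% in all (1.21% with the block), so the count of members is close to the background and the result is about PSME3 alone. The call was lost in each of the 3 fits without 1 control library (adjusted p = 0.0502, 0.0892 and 0.0891 without replicates 1, 2 and 3) and was kept without each siDDX5 library. A minimum mean of 50 counts removes the skipping transcript.

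**Figure D1:**
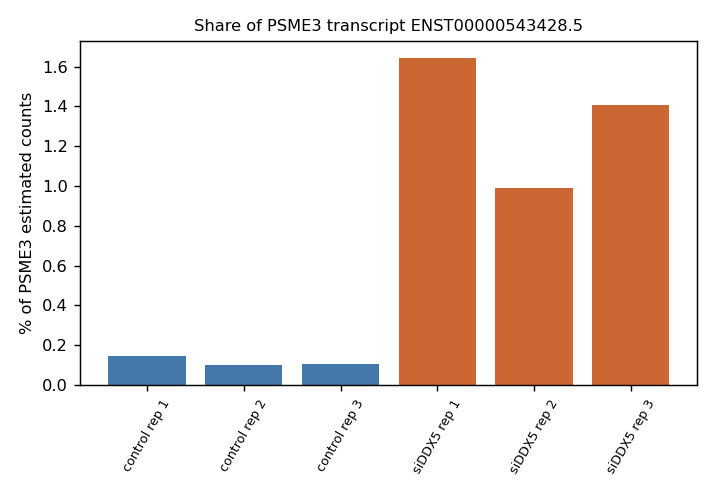
Share of PSME3 estimated counts, in percent (vertical axis), given to the skipping transcript ENST00000543428.5 in each library, with control libraries in blue and siDDX5 libraries in orange; each bar is 1 library. The shares lie between 0.103% and 0.144% in the controls and between 0.992% and 1.64% in the siDDX5 libraries.

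Apart from the skipping transcript, no PSME3 transcript passed a test of its level or usage. As a single transcript, ENST00000543428.5 differed by 3.63 on the log2 scale (SE 0.39), 12.3-fold, with an adjusted p of 0.173 over all transcripts in edgeR's quasi-likelihood test. It was thus not called for its level in that test, and also not with the replicate block or by DESeq2. The 3 main transcripts, ENST00000293362.7, ENST00000441946.6 and ENST00000590720.5, took means of 34.4%, 29.8% and 25.5% of the counts in the controls and 33.3%, 34.1% and 20.8% after knockdown. All 3 of them hold the exon. A short coding fragment, ENST00000586114.5, also had few counts in the controls, 0, 3.86 and 3.19, and 17.3, 10.9 and 13.3 in the siDDX5 libraries, with a usage adjusted p of 0.426. The whole gene had 219.7, 189.5 and 196 CPM in the controls and 226, 225 and 199 CPM in the siDDX5 libraries. These ranges overlap, and the log2 fold change was 0.10 (SE 0.11, adjusted p = 0.765).

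At the level of whole genes, no proteasome gene passed the test. Of the 47 tested, 0 were called at an adjusted p under 0.05 by edgeR's quasi-likelihood test, 0 with the replicate block and 0 by DESeq2, beside 25 of 15223 genes (0.164%), 395 (2.59%) and 323 of the 10795 genes with a DESeq2 adjusted p (2.99%). The smallest adjusted p of a member was 0.336, and 0.141 with the block. Taking p unadjusted, 4 members were under 0.05, PSMB9, PSMA2, PSME2 and PSMA3, all higher after knockdown, beside 11.4% of all genes in either direction and 5.37% higher. With the block there were 7, 6 higher and 1 lower, beside 20.5% of all genes. The groups did not overlap in 3 members, PSMA3, PSMD12 and PSMG1, all higher, beside 8.87% of all genes higher and 9.16% lower. Over both directions, the members' counts were thus not above the shares over all genes. Most of these few members were higher. For groups that did not overlap, their share was still below the 8.87% of all genes that were higher. With the block, 1554 of 15223 genes were higher at an unadjusted p under 0.05. The counts are small and are not read as a result on direction. No member was lower by unadjusted p without the block or by groups that did not overlap.

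The members' log2 fold changes lay close together, between -0.28 (PSMD8) and 0.50 (PSMB9), with an SD over genes of 0.13, against 0.29 over all genes. This was not particular to the members, and the sets were not matched for level of expression. The SD was 0.12 over the 80 tested ribosomal protein genes (RPL and RPS). It was 0.15 over the 39 tested genes around the proteasome that are described below. The members' median was 0.12 and 41 of 47 were above 0, beside a median of -0.00 and 49.6% of all genes above 0. The ribosomal protein genes leaned the same way, with a median of 0.09 and 71 of 80 above 0. The members' leaning rested largely on siDDX5 replicate 2. Without it, the median was 0.03 and 29 of the 47 were above 0. The 95% intervals of the members reached at most 0.90 (PSMB9) upward and -0.60 (PSMD8) downward, so a change to a log2 value of 1 lay outside all of them.

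**Figure D2:**
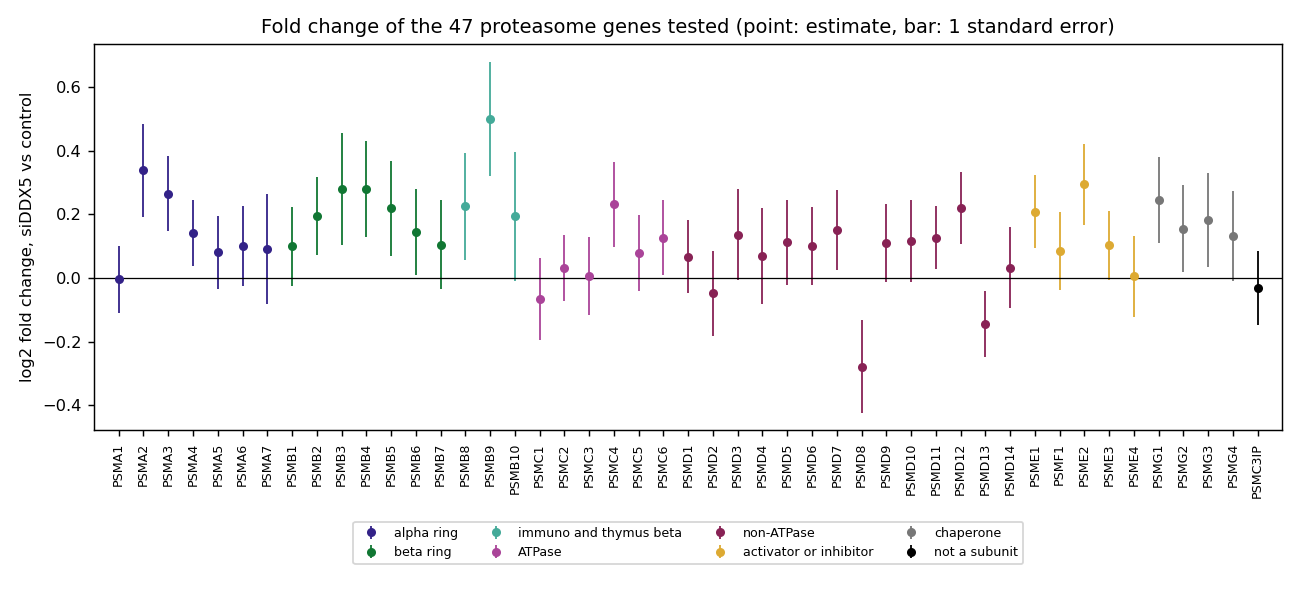
Log2 fold change (siDDX5 against control, vertical axis) of each of the 47 tested genes, grouped by role and coloured as in the key; points are the edgeR estimates and bars 1 standard error. The values run from -0.28 for PSMD8 to 0.50 for PSMB9, and 41 of the 47 points lie above the line at 0.

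siDDX5 replicate 2 was the highest of the 6 libraries in 40 of the 47 members, against 21.9% of all genes. Over all genes it was the library most often highest (3335 of 15223) and also the one most often lowest (3475). It had the fewest genes with any counts, 20567. Its median over the members, on the log2(CPM + 0.5) scale relative to the control mean, was 0.29. The other medians were 0.07, 0.01 and -0.10 in control replicates 1 to 3, and -0.01 and 0.05 in siDDX5 replicates 1 and 3. Of the siDDX5 libraries, replicates 1 and 3 thus lay within the range of the control medians. In siDDX5 replicate 2 the median was 0.39 for the 14 standard core subunits, 0.27 for the non-ATPase subunits and 0.22 for the ATPases, and PSMB9 stood at 0.71. Control replicate 3 was the lowest library in 23 members.

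siDDX5 replicate 2 also stood apart in the ribosomal protein genes. The 80 tested RPL and RPS genes had medians of 0.12, -0.04 and -0.09 in the controls and of -0.14, 0.32 and 0.12 in the siDDX5 libraries, and siDDX5 replicate 2 was the highest library in 62 of them. The lowest library was more often siDDX5 replicate 1 (47 genes) than control replicate 3 (21 genes). Their part in the members' result was not tested. In TPM, which is scaled to one total per library, the members together held 8997, 8856 and 8363 in the controls and 8852, 9684 and 8838 after knockdown, and siDDX5 replicate 2 was again the highest.

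**Figure D3:**
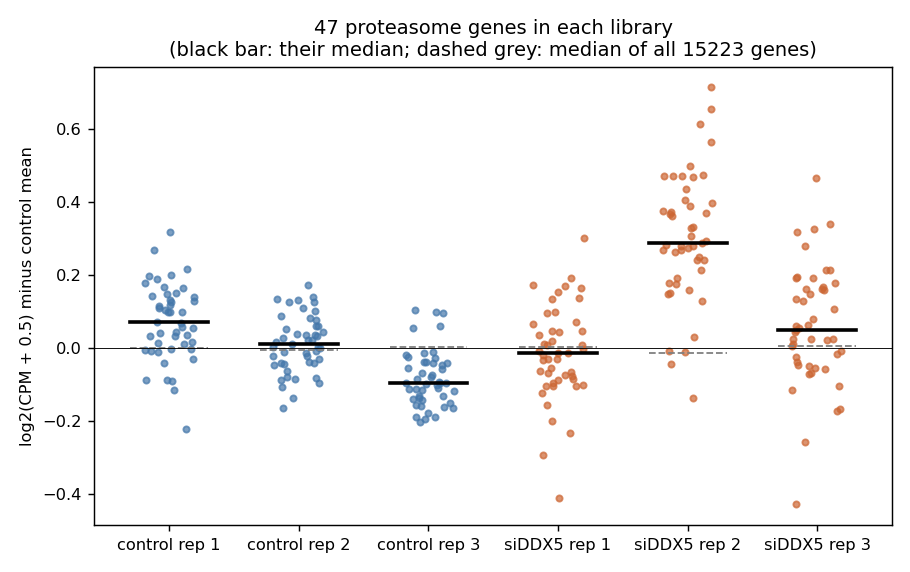
Each point is 1 of the 47 tested genes in 1 library, as log2(CPM + 0.5) minus the mean of the control libraries (vertical axis); black bars are the members' medians and dashed grey bars the medians of all 15223 genes. The members' medians lie between -0.10 and 0.07 in 5 libraries and at 0.29 in siDDX5 replicate 2, while the medians of all genes stay near 0.

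The alpha subunits of the core were the most abundant group in TPM, which allows genes of different length to be compared. The mean TPM over the 6 libraries ran from 176 for PSMA5 to 523 for PSMA4. PSMA4 had 496, 521 and 509 TPM in the controls and 521, 533 and 558 in the siDDX5 libraries, and the ranges met at 521. Its log2 fold change was 0.14 (SE 0.10, adjusted p = 0.643). PSMA3, at 429, 439.8 and 424 TPM in the controls and 467, 508 and 500.3 after knockdown, was higher in all 3 siDDX5 libraries (log2 fold change 0.26, SE 0.12, adjusted p = 0.439).

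PSMA2 had 114, 122 and 115 CPM in the controls and 118, 179 and 147 CPM after knockdown. The first siDDX5 library lay inside the control range and the others above it. The log2 fold change was 0.34 (SE 0.15, adjusted p = 0.425, edgeR), and 0.18 without siDDX5 replicate 2. Of the 7 tested alpha genes, 6 had a fold change above 0, with a median of 0.10, and PSMA1 stood at -0.00.

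The 7 standard beta genes all had a fold change above 0, with a median of 0.20, and each had its highest CPM in siDDX5 replicate 2. In TPM they ran from 129 for PSMB2 to 404 for PSMB7. The 14 standard core subunits, which are present in equal numbers in the particle, thus differed up to 4.05-fold in TPM, from PSMB2 to PSMA4. The proteolytic subunits PSMB5, PSMB6 and PSMB7, which cut after hydrophobic, acidic and basic residues in turn, had log2 fold changes of 0.22 (SE 0.15), 0.14 (SE 0.14) and 0.10 (SE 0.14), with adjusted p of 0.612, 0.735 and 0.824. PSMB5 was at 146, 136 and 114 TPM in the controls and at 143, 162 and 145 TPM after knockdown. The 2 groups overlapped for all 3 genes. Without siDDX5 replicate 2 the fold change of PSMB7 was -0.05.

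The immunoproteasome forms of these subunits were present at far lower levels. PSMB8, PSMB9 and PSMB10 had mean TPM of 26.4, 32.6 and 10.7. PSMB9 had 15.8, 11.4 and 11.1 CPM in the controls and 15.6, 21.0 and 17.5 CPM after knockdown. The first control was above the first siDDX5 library, and the other siDDX5 libraries were above every control. This was the largest fold change of a tested member, 0.50 (SE 0.18, interval 0.10 to 0.90), and it did not pass the test (adjusted p = 0.336, 0.141 with the block). PSMB8 (0.23, SE 0.17, adjusted p = 0.649) and PSMB10 (0.19, SE 0.20, adjusted p = 0.764) overlapped between the groups.

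Each immuno form can be set against the standard subunit whose place it takes, as a share of the pair's TPM. PSMB9 held 16.2%, 13.3% and 13.9% of the PSMB9 and PSMB6 pair in the controls and 17.8%, 17.8% and 17.6% in the siDDX5 libraries. These shares did not overlap, with means of 14.5% ± 1.57 and 17.8% ± 0.0988 (SD, n = 3 each), and were not tested. PSMB8 held 15.9%, 14.9% and 16.6% of its pair with PSMB5 in the controls and 16.6%, 16.6% and 13.9% after knockdown. PSMB10 held 2.61%, 2.52% and 2.40% of its pair with PSMB7 in the controls and 2.45%, 2.56% and 2.91% after knockdown. In both of these pairs the groups overlapped.

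**Figure D4:**
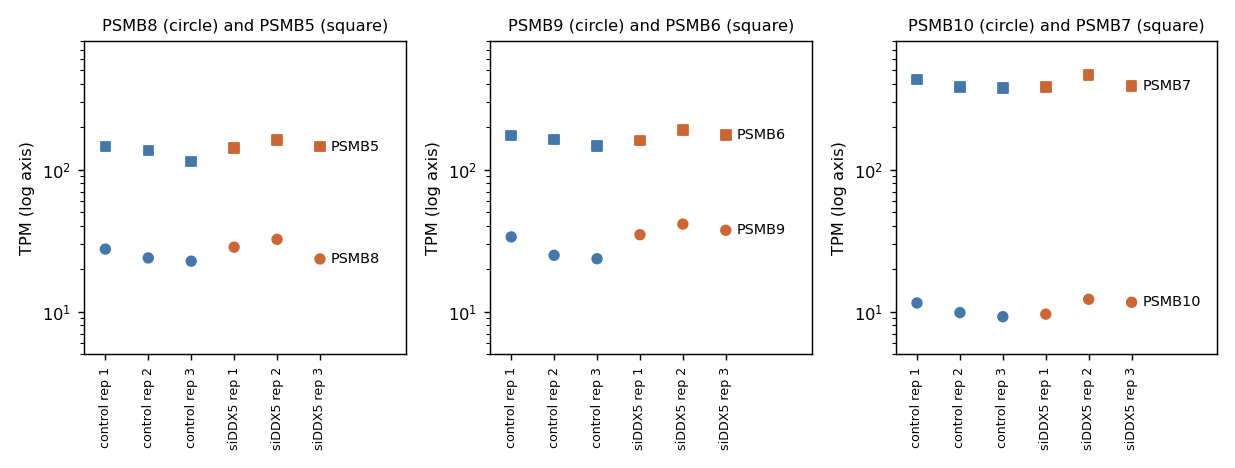
TPM (log axis) in each of the 6 libraries for the immunoproteasome subunits PSMB8, PSMB9 and PSMB10 (circles) and for the standard proteolytic subunits PSMB5, PSMB6 and PSMB7 whose places they take (squares), with control libraries in blue and siDDX5 libraries in orange. The immuno forms lie below their partners in every library, with PSMB10 the lowest at a mean of 10.7 TPM.

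PSMB8 and PSMB9 lie side by side in the major histocompatibility region of chromosome 6, where the reference holds several haplotype copies. In these tables, 88.0% of PSMB8 counts and 88.2% of PSMB9 counts were on such copies. Counting only the primary assembly, the fold change of PSMB8 turned from 0.23 to -0.35 and that of PSMB9 was 0.09 in place of 0.50 (adjusted p = 0.943, edgeR), so the values of both rest on the counts of the copies. The PSMB9 share of its pair was not recomputed on the primary assembly. PSME1, PSME2 and PSMC4 had 50% of their counts on copies and PSMB3 had 13.9%.

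The fold changes of the 6 ATPases of the regulatory particle had the smallest median of the roles, 0.05, and ran from -0.07 for PSMC1 to 0.23 for PSMC4. PSMC1, the most abundant at a mean of 436 TPM, had 239, 232 and 199 CPM in the controls and 207, 247 and 186 CPM after knockdown. The siDDX5 libraries held both the highest and the lowest value (SE 0.13, adjusted p = 0.887). The pseudogene PSMC1P1 received 10.9% as many counts as PSMC1 itself, and reads of so close a copy may have been divided unevenly.

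Of the 14 genes named as non-ATPase subunits, 11 had a fold change above 0, with a median of 0.10. The group holds the ubiquitin receptor PSMD4, the deubiquitinase PSMD14, the large scaffold subunits PSMD1 and PSMD2, lid subunits, and also PSMD5, PSMD9 and PSMD10, which are known as chaperones of the ATPase ring. PSMD12, a lid subunit and the most abundant of the group at a mean of 268 TPM, had 204, 242 and 219.7 CPM in the controls and 244, 285 and 247 CPM in the siDDX5 libraries. All 3 siDDX5 libraries were above all controls (log2 fold change 0.22, SE 0.11, adjusted p = 0.498).

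PSMD8, another lid subunit, had the lowest fold change of all members. It had 168, 152 and 130.4 CPM in the controls and 112, 148 and 111 CPM after knockdown. siDDX5 replicate 2, the library in which most members were highest, lay inside the control range and the other siDDX5 libraries lay below it. The log2 fold change was -0.28 (SE 0.15, adjusted p = 0.509, 0.194 with the block), and -0.43 without siDDX5 replicate 2. PSMD13, a further lid subunit, had a fold change of -0.14 (SE 0.10, adjusted p = 0.638). PSMD2 was at -0.05, and no other non-ATPase gene was below 0.

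Among the genes of the other caps, PSME1 and PSME2 encode the interferon-inducible PA28-alpha and PA28-beta and lie next to each other on chromosome 14. PSME2 had 77.8, 74.0 and 80.2 CPM in the controls and 79.2, 107 and 97.9 CPM after knockdown. The first siDDX5 library fell within the control range (log2 fold change 0.29, SE 0.13, adjusted p = 0.422). PSME1, the most abundant of the group at a mean of 211 TPM, had 110.1, 91.3 and 107 CPM in the controls and 109.5, 119 and 128 CPM after knockdown (0.21, SE 0.11, adjusted p = 0.528). PSME4, the large activator PA200, had the same mean in both groups within its spread, 196 ± 24.5 and 197 ± 21.8 CPM (SD, n = 3 each), a fold change of 0.00 (SE 0.13, adjusted p = 0.997). PSMF1, the inhibitor PI31, stood at 0.09 (SE 0.12).

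The 4 assembly chaperones PSMG1 to PSMG4, which hold the alpha ring while it forms, ran from 13.8 TPM for PSMG4 to 99.5 TPM for PSMG1. Their fold changes were all above 0, with a median of 0.17. PSMG1 had 36.2, 37.3 and 32.0 CPM in the controls and 37.6, 48.9 and 38.6 CPM after knockdown, above every control by a small margin (0.24, SE 0.13, adjusted p = 0.528). PSMC3IP, the member that is no subunit, had a fold change of -0.03 and was lowest in siDDX5 replicate 2, where it alone among the 47 had its lowest value.

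**Figure D5:**
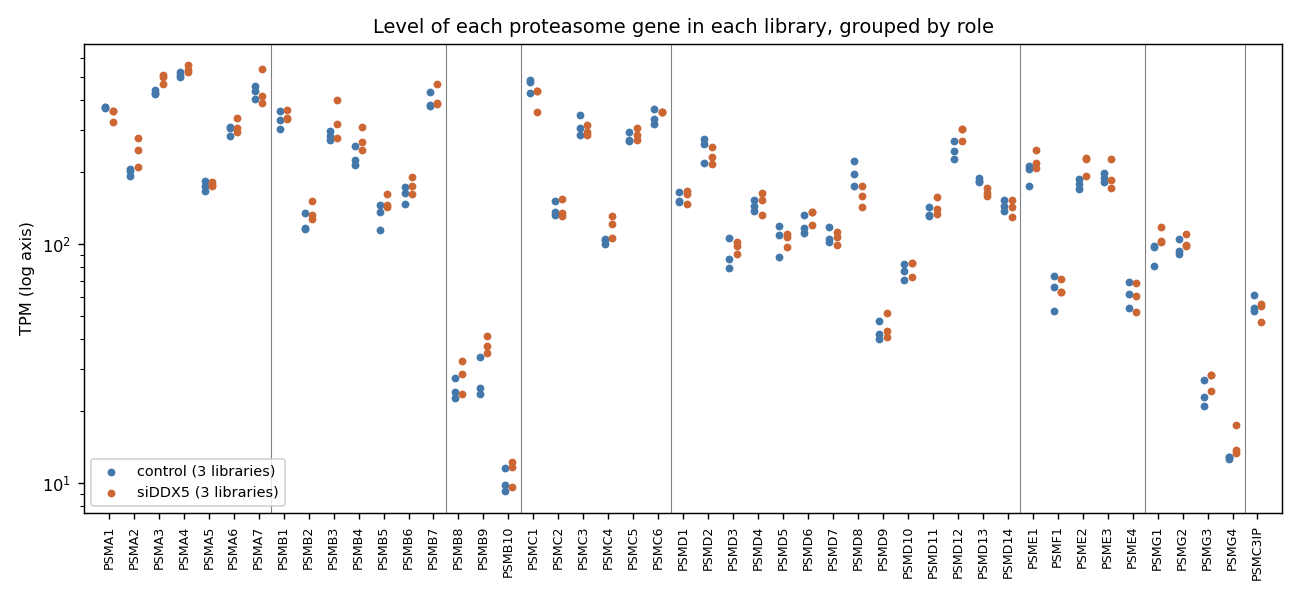
TPM (log axis) of each tested gene in the 3 control libraries (blue) and the 3 siDDX5 libraries (orange), with vertical lines between roles in the order alpha ring, beta ring, immuno forms, ATPases, non-ATPases, activators and inhibitor, chaperones and PSMC3IP. Points of both colours interleave for most genes, and the immuno forms lie between 9.22 and 41.4 TPM, below the 14 standard core subunits.

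Some members overlap other annotated genes. A protein-coding gene on the same strand overlaps 5 of them, and for PSMB10 and PSMD9 the overlapping gene held 66.1% and 40.1% as many counts as the member, against 0.33% to 9.30% for PSMA1, PSMA2 and PSMA6. On the other strand, 26 members overlap a gene, some of these 5 among them.

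At the level of single transcripts, edgeR's test called none over all genes, so it could not set the members apart. Of the 304 tested transcripts of members, 0 were called in edgeR's quasi-likelihood test and 0 with the block, beside 0 of 61169 transcripts (0%), while 11 had an unadjusted p under 0.05, beside 7.09% of all transcripts. DESeq2 called 1 of the 304, beside 795 of the 27905 transcripts with a DESeq2 adjusted p (2.85%). Some of the 304 had no such value. The transcript called was ENST00000584008.5 of PSMD12, annotated as a target of nonsense-mediated decay. It had 661, 848 and 579.6 counts in the controls and 985, 855 and 825 in the siDDX5 libraries. Its share of PSMD12 counts was 12.6%, 16.2% and 10.9% in the controls and 19.96%, 16.3% and 18.4% after knockdown, with siDDX5 replicate 2 just above the highest control. Its DESeq2 adjusted p was 0.0269 at a log2 fold change of 0.72, and its edgeR adjusted p was 0.561. The usage of PSMD12 transcripts was not called by edgeR diffSpliceDGE, either without or with the replicate block. The difference in shares thus did not pass the test of usage.

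Over all members, transcripts annotated for nonsense-mediated decay took 2.42%, 2.89% and 2.25% of the counts in the controls and 3.33%, 2.41% and 2.86% after knockdown. Protein-coding transcripts took 86.8% ± 1.03 and 86.6% ± 0.597, and transcripts with a retained intron 5.65% ± 0.753 and 5.03% ± 0.487 (SD, n = 3 each). The groups overlapped in all 3 classes.

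Genes that work around the proteasome were followed through a list of 40, of which 39 were tested. None was called in edgeR, with the block or by DESeq2, at a background of 0.164%, 2.59% and 2.99%. In edgeR 3 had an unadjusted p under 0.05, 2 higher (POMP and ZFAND5) and 1 lower (BAG6), beside 11.4% of all genes. Of the BAG6 counts, 92.8% were on haplotype copies. The median fold change of the list was 0.07 and 26 of the 39 were above 0, beside 49.6% of all genes. siDDX5 replicate 2 was the highest library in 22 of the 39, and without it 23 were above 0. NFE2L1 and NFE2L2, transcription factors that act on proteasome genes, had fold changes of -0.02 (SE 0.10) and -0.02 (SE 0.10). POMP, the maturation factor of the core particle, had 85.2, 91.1 and 84.3 CPM in the controls and 88.7, 129 and 110.0 CPM after knockdown, with the first siDDX5 library inside the control range (0.33, SE 0.14, adjusted p = 0.411). Its fold change was 0.19 without siDDX5 replicate 2.

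DDI2, the protease that releases NFE2L1 in its active form, had 96.0, 96.2 and 135 CPM in the controls and 137, 119 and 169 CPM after knockdown. Each siDDX5 library was above the control of the same number, while the groups overlapped. The log2 fold change was 0.38 (SE 0.17, adjusted p = 0.444), and the adjusted p was 0.0561 with the replicate block and 0.0349 with the block and a correction for GC content. In the limma fits on TPM the fold change was 0.15 (adjusted p = 0.844 and 0.839), and with 1 library left out it ran from 0.24 to 0.56. The ubiquitin receptor ADRM1 (-0.05), the small lid subunit SEM1 (0.17) and the proteasome-bound deubiquitinases USP14 (0.24) and UCHL5 (0.01) did not pass the test, with adjusted p of 0.943, 0.650, 0.461 and 0.993. USP14 was above every control in all 3 siDDX5 libraries in CPM, while its TPM values overlapped.

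The members' promoters were searched for the core of the antioxidant response element, TGACNNNGC (GCNNNGTCA on the other strand). These are the letters that NFE2L1 and NFE2L2 are known to recognise. RefSeq promoters of GRCh38.p14, from 250 bases before to 50 after the start, were found for 43 of the 49 members. The letters were present in 15 of the 43 (34.9%), against 16.1% of 27305 genes. The 27305 were all genes with a promoter entry and were not limited to protein-coding or tested genes, so the sets are unlike. A gene was counted if any of its entries held the letters. CCAAT, on either strand, was in 48.8% of members and in 39.7% of all genes. The windows of 25 bases below, around the element in some of the 15 members, are written along the gene's own strand with the element in capitals. They show that the letters between the fixed ends differ from gene to gene. Other members are not shown, such as PSMC4 and PSMD1, where the element lay 27 and 39 bases after the start.
PSMA4, chr15:78540652-78540676, plus strand: gggcacgaTGACTCTGCaccgcctc
PSMB3, chr17:38752629-38752653, plus strand: ctccgtttTGACTTTGCaaccaaac
PSMB9, chr6:32854036-32854060, plus strand: gcggggctGCCTCGTCActtgtctc
PSMD12, chr17:67366726-67366750, minus strand: acaaaaccTGACGCTGCaggctgga
PSME1, chr14:24136100-24136124, plus strand: ggcagggcTGACCCCGCctcctcca
PSME2, chr14:24146769-24146793, minus strand: ctggactgTGACCCAGCcagcaccg
PSME4, chr2:53971011-53971035, minus strand: cggcggctGCAGCGTCAccagcaga
PSMG1, chr21:39183618-39183642, minus strand: ccagggcaTGACAGCGCgggcgggc

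The element lay 126 bases before the start in PSMA4, 104 in PSMB3 and 34 in PSME4. The 15 members that hold it had a median log2 fold change of 0.16, from 0.00 (PSME4) to 0.50 (PSMB9). The 26 tested members with a promoter entry and without it had a median of 0.10, from -0.28 (PSMD8) to 0.34 (PSMA2). These ranges overlap over most of their length. A match is a run of letters and does not show that a factor binds there. Whether the element has a part in the members' levels was not tested.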

How the data were processed

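Estimated counts and TPM values per transcript were deposited by the authors, 1 table per library, with transcript lengths. The submitters' processing notes name bcl2fastq 2.20, FastQC 0.11.8, cutadapt 1.11 and kallisto 0.46.0, and GRCh38 (hg38); the annotation release is not given in the sources used here. Per the labels, libraries were stranded and selected for mRNA. The estimated counts are deposited as the quantifier gave them, not normalized. The deposited TPM values are relative to effective length and to the total of each library.

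Of 188753 transcripts, 169797 were joined to GENCODE 29 by identifier, 15296 on haplotype copies by gene symbol and 890 by position, and 2770 were left out; 99.59% to 99.63% of counts were joined. All 158601 transcripts of the same version were equal in length to that annotation. Estimated counts were summed per gene, rounded, filtered with filterByExpr, scaled with TMM and tested in edgeR 4.0.16 (glmQLFit, glmQLFTest; R 4.3.3) with Benjamini-Hochberg adjustment over all genes and a threshold of 0.05. CPM values carry the TMM factors. Alternatives used DESeq2 1.42.0, limma 3.58.1 on log2(TPM + 1) and log2(TPM + 0.1) of genes with a mean TPM of at least 1, other filters, offsets for GC content, the primary assembly alone, and each library left out. Scripts were tested on simulated data. The biological coefficient of variation was 15.7%, and 10.2% in the fit blocked by replicate number.

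Same-numbered control and siDDX5 libraries deviated together from their group means (r = 0.23, 0.32 and 0.66 over all genes). The titles do not say that the numbers mark pairs. The main tests therefore left the numbers out, and the block by replicate number was run as an alternative. Named with values were members called for level or transcript usage, the 3 highest and 3 lowest fold changes at a mean of at least 5 CPM, the proteolytic and immuno subunits, the activators, and the most abundant gene of each role. Other members, such as PSMA3 and PSMC4, the pathway genes ZFAND5 and BAG6, and transcripts beside that of the PSME3 call were named after their values were seen. The members and lists were chosen with earlier results of these data known. Depth covers counting error only: 3 counts correspond to 0.115 to 0.165 CPM. One sequence is not reported here.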

Additional observations from a re-analysis of the deposited data

How the results depend on the processing

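No proteasome gene was called in any of the 16 alternatives at gene level. With the replicate block the count over all genes rose from 25 to 395, and the block changed no call of a member. The count over all genes was 323 by DESeq2, 136 without a filter, 1 and 1 with limma on log2(TPM + 1) and log2(TPM + 0.1), 706 with the block and GC correction, and 0 to 15 with 1 library left out. With the block and GC correction 1 gene of the pathway list, DDI2, was called. The DDX5 fold change was -1.44 with an adjusted p of 0.0850 and 0.0928 in the limma fits, and -1.54 to -1.30 with 1 library left out, where 3 of 6 fits lost the call. The members' median fold change stayed above 0 in all 17 alternatives, from 0.03 to 0.20 with 1 library left out, 0.06 with limma and 0.12 without PSMC3IP. Usage was called for 3 members without a filter (PSME3, PSMA6 and PSMB8), for 0 at a mean of at least 50 counts, and for 0 to 2 with 1 library left out, where the PSME3 coefficient ranged from 2.29 to 2.55. Those calls were PSMC5 alone without control replicate 2, and, beside PSME3, PSMC3 without siDDX5 replicate 2 and PSMA6 without siDDX5 replicate 3. DESeq2 on single transcripts, added after seeing the data, called 1. The sign reversed for PSMB8 with the primary assembly (-0.35). It also reversed for ADRM1 and NFE2L1 with the GC correction (0.0611 and 0.00964) and with the block and GC correction (0.0514 and 0.0088). PSME4 stood at -0.0281 and -0.0286 in the limma fits, -0.0319 with the GC correction and -0.0286 with both block and GC correction, and UCHL5 at -0.0515, -0.0521, -0.0526 and -0.0557. With 1 library left out, sign changes lay in the ranges -0.22 to 0.10 (ADRM1), -0.0491 to 0.0121 (NFE2L1), -0.064 to 0.013 (NFE2L2), -0.0508 to 0.20 (PSMB7), -0.18 to 0.0323 (PSMC1), -0.0851 to 0.0993 (PSME4) and -0.0304 to 0.0474 (UCHL5). The cause was not tested. None of these genes was called in any fit. Depth limits the PSME3 result: the skipping transcript had 4.24 to 8.14 counts in the control libraries.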
